A study of Mus musculus with 15 samples.

Results

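The 10 genes described here make, clear or sense prostaglandin E2 (PGE2): Ptgs1, Ptgs2, Ptges, Ptges2, Ptges3, Hpgd, Slco2a1, Ptger2, Ptger3 and Ptger4. They were selected by their role in the pathway, with earlier results of these data known, among them the difference in Hpgd between CD34+ and CD34- cells. All 10 were found by symbol among the 37583 genes counted, and all 10 passed the filter on low counts.

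The RNA came from skin tumour cells of C57BL/6 mice that had received the mutagen DMBA and the tumour-promoting phorbol ester TPA for over 24 weeks. Sorting used CD34, a surface protein that marks hair follicle bulge cells in mouse skin, and integrin alpha 6 (a6, the product of Itga6), through which basal keratinocytes bind laminin. The 3 sorted populations were CD34+ a6-high, CD34- a6-high and CD34- a6-low. Animals labelled KO carried K14-cre and SIRT6 flox/flox alleles, so that Cre, driven by the keratin 14 promoter, acts in keratinocytes, and the others were labelled WT. Each population had 2 KO and 3 WT libraries, 15 in all, and every library came from a DMBA/TPA-treated animal. Untreated skin was not analysed here. The labels do not say whether cells of several animals or tumours were pooled, nor whether libraries with the same replicate number came from the same animal.

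PGE2 is a short-lived lipid signal. The cyclooxygenases, encoded by Ptgs1 and Ptgs2, convert arachidonic acid to prostaglandin H2, and prostaglandin E synthases turn that product into PGE2. The prostaglandin transporter SLCO2A1 carries PGE2 into cells, where 15-hydroxyprostaglandin dehydrogenase, encoded by Hpgd, oxidises it to a form with little activity. Outside the cell PGE2 acts on G protein-coupled receptors, of which EP2 (Ptger2) and EP4 (Ptger4) raise cyclic AMP and EP3 (Ptger3) mostly lowers it. Ptgs2 is a phorbol ester-inducible gene and has long been studied in mouse skin carcinogenesis.

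The promoters of Hpgd, Ptger4 and Ptgs2 are shown because the first 2 genes differed between the sorted populations and the third ranged from 25.3 to 375 CPM (counts per 1e6 gene counts) among the a6-low libraries. Each runs 5′ to 3′ on the strand of its gene from 250 bases before to 50 bases after the RefSeq start site, in build GRCm38.p6. Capitals mark matches, on either strand, to 4 short motifs. These are the half-site of the cyclic AMP response element, spelled TGACG, the GC box, spelled GGGCGG, the CCAAT box, and the TATAAA motif. A further motif searched, the E-box, is left in lower case.
Hpgd, chr8:56294302-56294601, plus strand: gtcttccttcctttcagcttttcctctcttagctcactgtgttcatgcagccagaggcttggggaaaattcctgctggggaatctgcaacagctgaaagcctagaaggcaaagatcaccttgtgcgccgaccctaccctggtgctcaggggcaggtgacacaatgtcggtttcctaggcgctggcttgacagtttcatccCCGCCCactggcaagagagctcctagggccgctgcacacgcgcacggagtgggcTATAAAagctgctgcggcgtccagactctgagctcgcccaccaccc
Ptger4, chr15:5244138-5244437, minus strand: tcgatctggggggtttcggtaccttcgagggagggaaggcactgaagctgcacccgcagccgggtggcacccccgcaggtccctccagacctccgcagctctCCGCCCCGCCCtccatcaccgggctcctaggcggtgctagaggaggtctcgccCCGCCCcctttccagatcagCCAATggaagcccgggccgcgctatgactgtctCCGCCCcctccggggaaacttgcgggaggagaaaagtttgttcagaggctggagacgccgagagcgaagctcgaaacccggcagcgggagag
Ptgs2, chr1:150099781-150100080, plus strand: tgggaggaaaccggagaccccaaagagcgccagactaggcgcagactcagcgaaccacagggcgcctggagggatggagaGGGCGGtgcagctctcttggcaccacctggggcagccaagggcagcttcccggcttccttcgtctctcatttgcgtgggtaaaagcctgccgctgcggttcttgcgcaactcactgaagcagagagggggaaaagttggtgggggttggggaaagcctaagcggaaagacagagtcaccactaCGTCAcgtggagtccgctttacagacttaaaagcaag

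All 10 members had 1 entry in the RefSeq promoter table. The Hpgd window held a TATAAA motif at position 5 (the start site is position 1) and a GC box at -50. The Ptger4 window held GC boxes at -148, -143, -95 and -42, the first 2 of which share a base, and a CCAAT box at -75. In the Ptgs2 window a half-site at position 14 overlapped an E-box (CANNTG) at position 17, and a GC box lay at -170. Over the members, a GC box occurred in 7 of 10 windows, an E-box in 8, and a TATAAA motif, a CCAAT box and the half-site in 2 each. The shares among 32851 promoters of the same length were 35.7% for the GC box, 72.3% for the E-box, 13.6% for the TATAAA motif, 37.4% for the CCAAT box and 20.8% for the half-site. The full cyclic AMP response element (TGACGTCA, 1.79% of all promoters) and the AP-1 motif (TGANTCA, 7.81%) matched none of the 10 windows. A match of letters is a description and shows no binding.

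Gene counts summed to 10.08 to 28.62 M (M, 1e6) per library. The range was 19.78 to 28.62 M in KO and 10.08 to 21.56 M in WT libraries. Keratin genes marked the cells as keratinocytes, with Krt14 at 28325 to 74974 CPM in the 15 libraries. The targeted gene Sirt6 ranged over 5.07 to 8.53 CPM where the label was KO and over 4.45 to 10.5 CPM where it was WT, so it does not check the genotype label. Cd34 lay at 163 to 214 CPM in CD34+ libraries and at 4.5 to 40.3 CPM in the other 10. In 2 of the 5 a6-low libraries, WT replicate 1 and KO replicate 2, Itga6 was at 471 and 445 CPM, against 67.9 to 174 CPM in the other 3. The 3 libraries of KO replicate 2 held the Y-linked gene Ddx3y at 51.8 to 74.9 CPM, and the other 12 held 0.222 CPM or less. Summed fibroblast markers reached at most 5.0 CPM, with Lum and Dpt at 0 in all 15 libraries, summed T cell markers at most 0.5 CPM and summed mast cell markers at most 1.3 CPM. Summed melanocyte markers were 139 CPM in a6-low KO replicate 1 and at most 6.6 CPM elsewhere. Other lists were higher. Summed endothelial markers were 2.44 to 58.1 CPM over the 15 libraries, and summed macrophage and dendritic cell markers 9.28 to 188 CPM. Summed neutrophil markers were 20.1 to 549 CPM, with 1 of them, S100a9, at 18.7 to 549 CPM. Below, the 5 libraries of a population are given in the order KO replicates 1 and 2, then WT replicates 1, 2 and 3.

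Levels of different genes were compared as RPKM, counts per 1e6 counts and per kilobase of exon. The synthesis genes were the most abundant. Ptges, which encodes the inducible microsomal PGE2 synthase, averaged 96.4 ± 31.0 RPKM (SD, n = 15), and Ptges3, the cytosolic synthase also known as the HSP90 co-chaperone p23, averaged 55.5 ± 15.4. Next came Ptgs2 at 50.8 ± 25.0 RPKM, Ptgs1 at 37.2 ± 8.62 and Ptges2, a second membrane-associated synthase, at 15.5 ± 5.42. Hpgd followed at 8.24 ± 7.75 RPKM and Slco2a1 at 3.80 ± 1.44. The receptor genes were lowest, with Ptger4 at 1.35 ± 0.995, Ptger2 at 0.532 ± 0.290 and Ptger3 at 0.0635 ± 0.0457 RPKM. Neighbours in this order mostly overlapped over the 15 libraries. Within a library, Ptges was above Ptges3 in 14 of 15, Ptges3 above Ptgs2 in 9 and Hpgd above Slco2a1 in 9. Only between Ptger2 and Ptger3 did the ranges of neighbours not overlap.

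**Figure D1:**
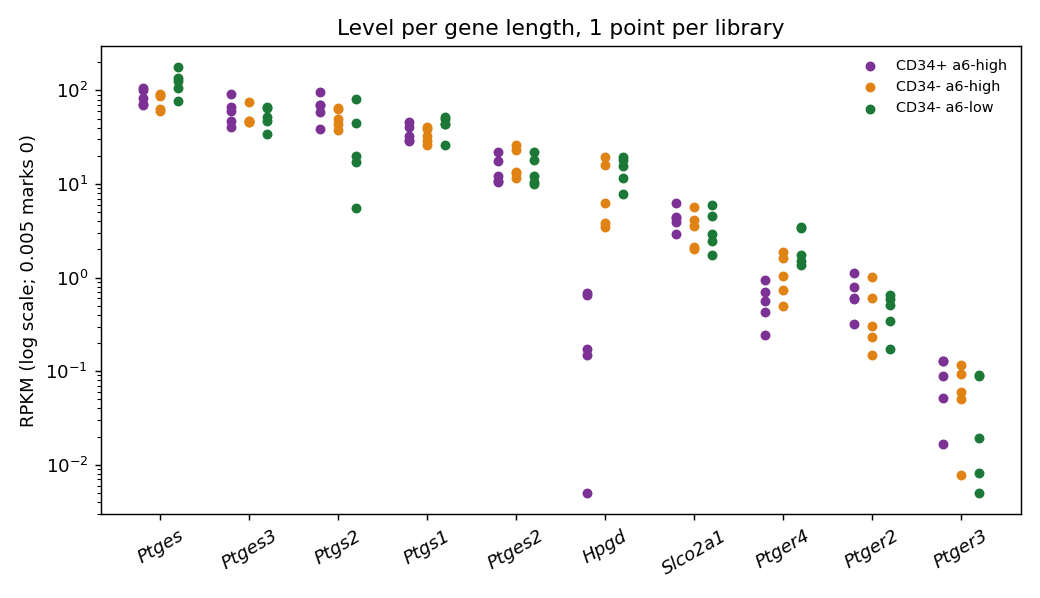
RPKM (log scale) of the 10 genes in the 15 libraries, 1 point per library, coloured by population, with libraries at 0 drawn at 0.005. The genes run from Ptges, with a mean of 96.4 RPKM, to Ptger3, with 0.0635, and the CD34+ points of Hpgd lie apart from its other points.

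Of the cyclooxygenase genes, Ptgs1, the form present in most tissues, stayed within 100.3 to 199.9 CPM. It lay at 127, 156, 178, 115 and 111 CPM in CD34+ a6-high libraries and at 159, 100.3, 127, 112 and 149 CPM in CD34- a6-high libraries. Its a6-low values were 193, 102, 200, 169 and 171 CPM. The a6-low value was above the CD34- a6-high value in 5 of 5 labels, and the ranges of the 3 populations overlapped.

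Ptgs2, the inducible cyclooxygenase gene, was high in every a6-high library and spread widely among the a6-low libraries. It lay at 270, 441, 321, 317 and 176 CPM in CD34+ a6-high libraries and at 296, 172, 199.3, 229 and 292 CPM in CD34- a6-high libraries. In a6-low libraries the values were 77.9, 205, 375, 25.3 and 91.1 CPM. The 2 highest a6-low values belonged to the 2 libraries with high Itga6, and in the other 3 Ptgs2 was below every a6-high library. The suprabasal keratin gene Krt10 was at 2837 and 1833 CPM in those 2 libraries and at 5777 to 12271 CPM in the other 3. Summed suprabasal markers (6 genes) were 10124 and 6184 CPM against 20246 to 39553 CPM. Not every marker of that list separated them. Lor was at 4.23 and 0.912 CPM against 0.555 to 9.12 CPM, and Sbsn at 81.6 and 49.5 CPM against 63.5 to 162 CPM. Per length, Ptgs2 exceeded Ptgs1 in all 10 a6-high libraries, by 1.33 to 2.39 times, and in the 2 a6-low libraries with high Itga6, by 1.59 and 1.71 times. In the other 3 a6-low libraries the ratio of Ptgs2 to Ptgs1 was 0.342, 0.127 and 0.453.

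Ptges was highest in a6-low libraries. It lay at 272, 330, 399, 417 and 283 CPM in CD34+ a6-high, at 340, 249.4, 356, 358 and 240 CPM in CD34- a6-high, and at 531, 696, 492, 422 and 301 CPM in a6-low libraries. In each of the 5 genotype and replicate labels the a6-low library had the highest value of the 3, although the ranges of the populations overlapped. Ptges2 ranged from 51.2 to 132 CPM and Ptges3 from 75.0 to 205 CPM over the 15 libraries, and the ranges of the populations overlapped for both.

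Hpgd, the gene of the PGE2-oxidising enzyme, was close to absent from CD34+ cells. It lay at 0.252, 1.14, 0.287, 1.09 and 0 CPM there, which is 6, 25, 6, 15 and 0 reads, and the library without a read allows up to 0.246 CPM (3 reads, counting error only). In CD34- a6-high libraries Hpgd lay at 27.2, 6.44, 32.8, 10.5 and 5.91 CPM, and in a6-low libraries at 32.9, 19.3, 30.7, 13.3 and 26.1 CPM. Every CD34- library, a6-high or a6-low, was thus above every CD34+ one, and the CD34- populations overlapped. In bulk RNA, fewer cells of a type and less RNA per cell cannot be told apart.

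Slco2a1, the transporter gene, did not follow Hpgd. It averaged 59.2 ± 16.3 CPM (SD, n = 5) in CD34+ a6-high, 47.5 ± 20.6 in CD34- a6-high and 47.9 ± 23.3 CPM in a6-low libraries, with overlapping ranges. Its highest value in each population, 77.5 to 84.4 CPM, was in KO replicate 2.

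Among the receptor genes, Ptger4 was lowest in CD34+ cells. It lay at 6.26, 2.88, 4.64, 3.78 and 1.64 CPM in CD34+ a6-high, at 10.7, 4.95, 6.99, 12.5 and 3.30 CPM in CD34- a6-high, and at 11.5, 23.3, 22.6, 8.99 and 10.1 CPM in a6-low libraries. The CD34+ and a6-low ranges did not overlap, and the CD34- a6-high range overlapped both. The a6-low values above 20 CPM were in the 2 libraries with high Itga6.

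Ptger2 lay at 4.07, 5.80, 3.16, 3.05 and 1.64 CPM in CD34+ a6-high, at 3.11, 5.30, 1.59, 1.19 and 0.767 CPM in CD34- a6-high, and at 3.09, 3.36, 2.63, 0.888 and 1.79 CPM in a6-low libraries. The ranges of the populations overlapped, and the KO libraries had the highest values in each. Ptger2 rested on 81 to 127 reads per KO library and on 8 to 66 per WT library. Ptger3 rested on 0 to 14 reads per library, at most 0.738 CPM. Its only library without a read, a6-low KO replicate 2, allows up to 0.124 CPM.

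**Figure D2:**
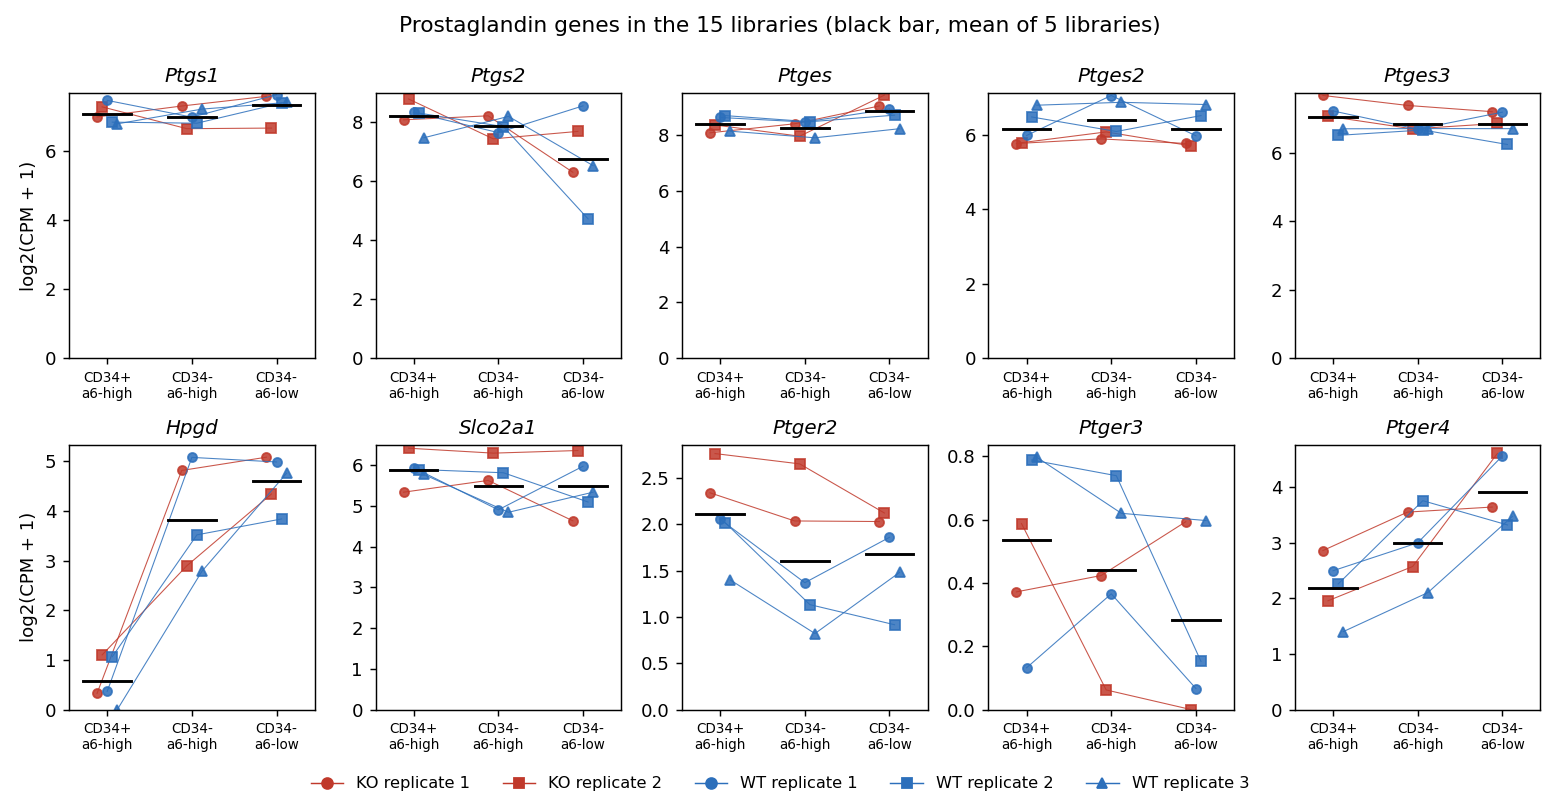
log2(CPM + 1) of each gene in the 3 populations, with a line joining libraries of the same genotype and replicate label, KO in red and WT in blue, and a black bar at the mean of 5 libraries. The CD34+ libraries of Hpgd, at 0 to 1.14 CPM, lie below all its other libraries, and the a6-low libraries of Ptgs2 spread from 25.3 to 375 CPM.

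The first comparison set CD34+ against CD34- cells within the a6-high gate (mean of the WT and KO differences). Hpgd was 29.2-fold lower in CD34+ libraries, with a log2 difference of -4.87 ± 0.79 (SE) and lower values in 5 of 5 labels. This comparison was in view when the genes were chosen, so its values are a description without a p-value. By the threshold used in the later comparisons (adjusted p of 0.05, edgeR quasi-likelihood test) 1 of the 10 members, Hpgd, is counted here, as are 1.17% of the 14652 genes tested, and it alone of the members had libraries that did not overlap, as 4.2% of genes had. Since the choice of Hpgd drew on this comparison, nothing is read from these counts. With single libraries left out its log2 difference was -4.17 to -5.58, and -5.93 without all 3 libraries of KO replicate 2. Summed fibroblast markers (8 genes) were also lower in CD34+ libraries, at 0 to 0.328 CPM. They were 1.23 to 5.02 CPM in CD34- a6-high and 0.829 to 4.66 CPM in a6-low libraries, with Lum and Dpt at 0 throughout. Much of this came from 1 marker, Thy1. It lay at 1.63, 1.36, 3.82, 1.15 and 0.614 CPM in CD34- a6-high and at most 0.274 CPM in CD34+ libraries. In CD34- a6-high WT replicate 1 the other 7 markers were at 0, and Col1a1 was at 0 in WT replicate 3 as well. Summed endothelial markers (9 genes) were 10.8 to 58.1 CPM in CD34+ and 2.4 to 6.7 CPM in CD34- a6-high libraries. The sum was at most 15.8 CPM in CD34+ without WT replicate 3, where Plvap alone was at 39.2 CPM. In a6-low libraries it was 4.25 to 20.2 CPM, which overlapped the CD34+ range. Tek was at 0 in all CD34- a6-high libraries. The part of either list in the Hpgd difference was not tested.

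The other 9 members differed by less than 2-fold here. Ptger4 had a log2 difference of -0.98 ± 0.46 and was lower in 5 of 5 labels, and Ptger2 had one of 0.69 ± 0.34 and was higher in 5 of 5. The values were 0.39 ± 0.55 for Ptgs2, 0.30 ± 0.35 for Slco2a1, 0.24 ± 0.22 for Ptges3, -0.25 ± 0.22 for Ptges2, 0.12 ± 0.19 for Ptges and 0.09 ± 0.21 for Ptgs1. The median over the 10 members was 0.18, beside -0.02 over all genes.

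The second comparison set a6-high against a6-low cells among CD34- libraries. None of the 10 members passed an adjusted p of 0.05 (edgeR quasi-likelihood test), where 0.00683% of genes, 1 of 14652, did, and 2 members had an unadjusted p under 0.05, as 11.1% of genes had. Those were Ptges, with a log2 difference of -0.70 ± 0.19 (adjusted p = 0.244), and Ptger4, with -1.01 ± 0.45 (adjusted p = 0.439). Ptges and Ptgs1 were lower in the a6-high library in 5 of 5 labels and Ptger4 in 4 of 5. With DESeq2 or without a filter on low counts Ptges passed (adjusted p = 0.0387 and 0.0234). No member's libraries were free of overlap, as was so for 1.77% of genes. The log2 difference was -0.33 ± 0.21 for Ptgs1, 0.64 ± 0.55 for Ptgs2 and -0.58 ± 0.62 for Hpgd, and the median over members was -0.07, beside -0.02 over all genes.

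The third comparison set CD34+ a6-high against CD34- a6-low cells, the populations that differ in both sort markers. Ptger4 fell in CD34+ cells, with 3.84 ± 1.75 CPM (SD, n = 5) against 15.3 ± 7.06 CPM, a 3.96-fold difference (log2 -1.99 ± 0.47 SE, adjusted p = 0.0340 by edgeR's quasi-likelihood test). It was lower in 5 of 5 labels. Hpgd was 43.6-fold lower (log2 -5.44 ± 0.81), which uses the same CD34+ libraries as the first comparison and is a description. These 2 of the 10 members are counted as past the threshold, as were 4.93% of genes, and the same 2 had libraries that did not overlap, as 6.91% of genes had. Summed macrophage and dendritic cell markers (11 genes, each with reads in at least 1 library) were 20.7 to 50.05 CPM in CD34+ and 32.0 to 188 CPM in a6-low libraries. Most of the difference in the sums came from Cd74, with means of 13.1 CPM in CD34+ and 87.6 CPM in a6-low libraries. Cd68 alone went the other way, with means of 17.3 and 13.8 CPM, and every other marker had its higher mean in a6-low libraries. In CD34+ libraries up to 8 of the 11 markers were at 0, and in a6-low libraries up to 4. The part of these markers in the Ptger4 difference was not tested.

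The adjusted p of Ptger4 missed the threshold when 1 of 6 libraries was left out. The adjusted p was 0.0945 and 0.131 without CD34+ KO replicate 1 or 2, 0.0539 and 0.0698 without CD34+ WT replicate 2 or 3, 0.0522 without a6-low WT replicate 1 and 0.0812 without a6-low KO replicate 2 (log2 -1.69 to -2.32). Without both a6-low libraries with high Itga6 it was 0.108 (log2 -1.41), and without all 3 libraries of KO replicate 2 it was 0.244 (log2 -1.46). The log2 difference of Hpgd was -5.09 to -6.16 with single libraries left out.

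Ptges was lower in the CD34+ library in 5 of 5 labels, at 340 ± 66.1 against 488 ± 145 CPM (log2 -0.59 ± 0.19, adjusted p = 0.0993), and passed with genotype and replicate number as a replicate block (log2 -0.58, adjusted p = 0.0242). It also passed with DESeq2 (adjusted p = 0.0496) and without a filter on low counts (0.0406). Ptgs2 averaged 305 ± 95.7 against 155 ± 139 CPM (log2 1.03 ± 0.55, adjusted p = 0.307) and was higher in the CD34+ library in 4 of 5 labels. Without the 2 a6-low libraries with high Itga6, which were set aside with their values known, the Ptgs2 difference was 2.20 ± 0.45 on the log2 scale (adjusted p = 0.0164). Leaving out only WT replicate 1 gave 1.77 ± 0.41 (adjusted p = 0.0342). With all libraries and no filter on low counts Ptgs2 passed as well (log2 1.01, adjusted p = 0.00460). The remaining members differed by less than 2-fold, and the median over members was 0.12, beside -0.02 over all genes.

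**Figure D3:**
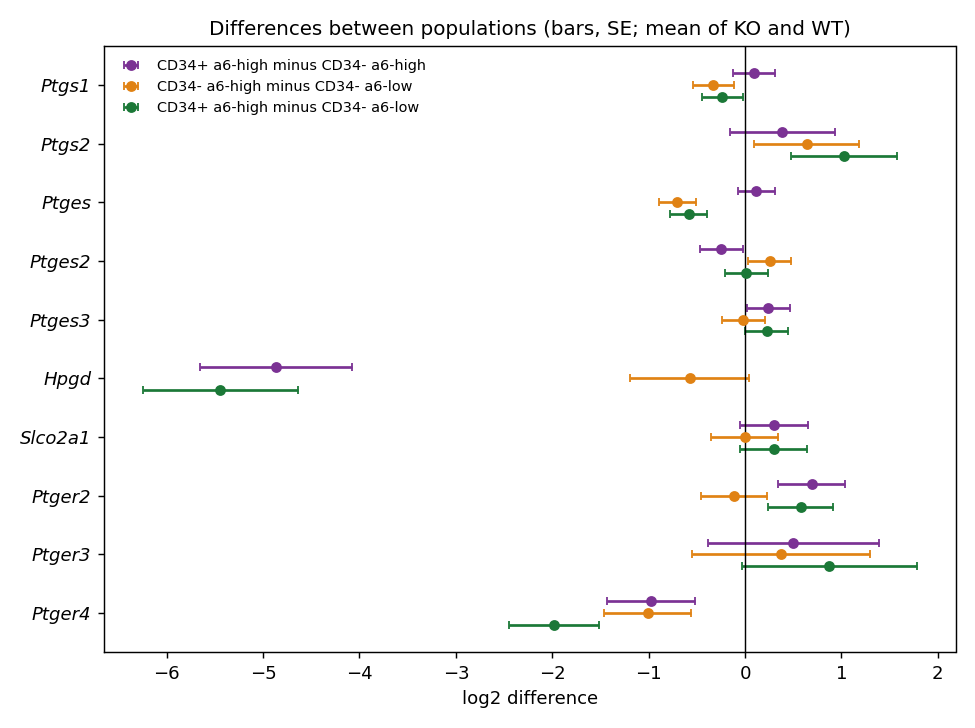
log2 difference of each gene in the 3 comparisons between populations, with bars of 1 SE. Hpgd lies at -4.87 and -5.44 in the comparisons that involve CD34+ cells, Ptger4 lies between -0.98 and -1.99 in all 3, and the other genes lie within about 1 of zero.

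KO and WT libraries were compared within each population and in sums over the 3 populations per genotype and replicate number, because libraries with 1 number could come from 1 animal. None of the 10 members passed an adjusted p of 0.05 (edgeR quasi-likelihood test). The share of genes that passed was 0.00683% in each population, 1 of 14652, and 0.00641% in the sums, 1 of 15597. An unadjusted p under 0.05 was reached by 0 members in CD34+, 2 in CD34- a6-high, 2 in a6-low libraries and 2 in the sums, and by 7.59%, 9.59%, 4.69% and 10.6% of all genes in the same order. With DESeq2 no member passed either.

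Ptges2 and Ptger2 had separate KO and WT ranges in all 3 populations. In the sums Ptges2 lay at 55.6 and 56.6 CPM in KO and at 79.6, 79.2 and 115 CPM in WT (log2 -0.70 ± 0.22, adjusted p = 0.461). Its log2 difference was -0.69 ± 0.32 in CD34+, -0.75 ± 0.32 in CD34- a6-high and -0.75 ± 0.32 in a6-low libraries (adjusted p = 0.652, 0.515 and 0.865). Ptger2 lay at 3.42 and 4.72 CPM in KO sums and at 2.57, 1.73 and 1.44 CPM in WT sums (log2 1.08 ± 0.35, adjusted p = 0.461). Its log2 difference was 0.91 ± 0.47, 1.82 ± 0.48 and 0.83 ± 0.48 in the same order of populations (adjusted p = 0.654, 0.498 and 0.865).

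With 2 libraries against 3, separate ranges were common. They occurred in 28.1% of genes in CD34+, 30.2% in CD34- a6-high and 14.9% in a6-low libraries and in 30.4% in the sums. Of the 10 members 2 had them in CD34+, 2 in CD34- a6-high libraries and 2 in the sums, each time Ptges2 and Ptger2. In a6-low libraries 3 had them, with Ptges added, at 531 and 696 CPM in KO against 301 to 492 CPM in WT (log2 0.60 ± 0.27, adjusted p = 0.865). These counts lie at or near the share of all genes in every comparison but a6-low.

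Hpgd and the cyclooxygenase genes showed no such separation. In the sums the log2 difference was 0.18 ± 0.48 for Hpgd, 0.01 ± 0.25 for Ptgs2, -0.09 ± 0.22 for Ptgs1, 0.16 ± 0.21 for Ptges, 0.37 ± 0.24 for Ptges3, 0.27 ± 0.33 for Slco2a1, 0.19 ± 0.34 for Ptger4 and -0.60 ± 0.77 for Ptger3. Hpgd was low in CD34+ libraries of both genotypes, at 0.252 and 1.14 CPM in KO and 0 to 1.09 CPM in WT. The median over members was 0.25, 0.02 and 0.21 in the 3 populations and 0.17 in the sums, beside 0.01, 0.05, 0.04 and 0.03 over all genes.

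Whether the population differences themselves depended on genotype was tested with interaction terms. No member passed (edgeR quasi-likelihood test), and 0% of genes did in either interaction. Of the members 0 had an unadjusted p under 0.05, and with DESeq2 none passed. The smallest p was that of Ptges for a6, where the difference in KO minus that in WT was -0.71 ± 0.38 on the log2 scale (unadjusted p = 0.0892). For Hpgd the interaction was 0.55 ± 1.42 for CD34 and -0.12 ± 1.24 for a6, so the precision allowed differences of several fold either way.

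**Figure D4:**
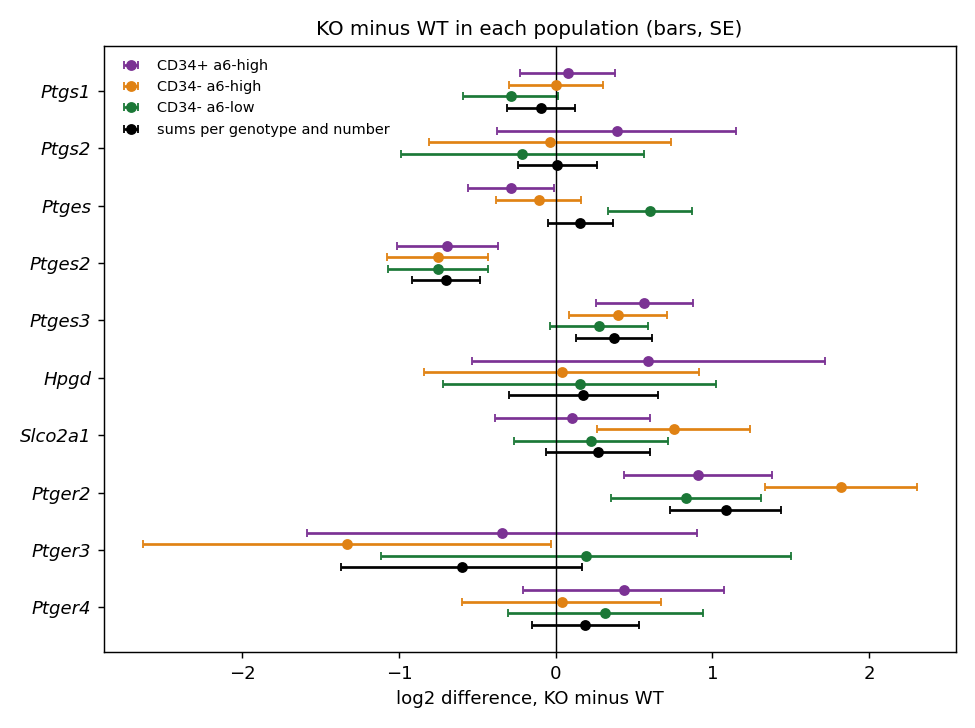
log2 difference KO minus WT of each gene in the 3 populations and in the sums over populations (black), with bars of 1 SE. Ptges2 lies at -0.69 to -0.75 and Ptger2 at 0.83 to 1.82, and none of the differences passed the adjusted threshold.

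The rest of the pathway was followed in 5 lists of other genes, with the same tests over all genes (edgeR quasi-likelihood test). For arachidonate release 15 of 16 genes were matched and 12 tested, for other prostanoid enzymes and carriers 9 of 12 were tested, for other prostanoid receptors 1 of 6, for the lipoxygenase branch 9 of 11 and for genes that respond to cyclic AMP 9 of 9. In the first comparison, CD34+ against CD34- a6-high, 2 of the 40 list genes tested rose and 0 fell, beside 124 and 47 of 14652 genes (1.17%). Ptgr1 encodes a reductase that acts in the breakdown of prostaglandins and leukotriene B4. It rose 3.59-fold, at 416 ± 215 against 117 ± 27.1 CPM (SD, n = 5, log2 1.84 ± 0.36, adjusted p = 0.0300). Areg, the gene of the EGF receptor ligand amphiregulin, rose 3.32-fold, at 528 ± 250 against 159 ± 30.1 CPM (log2 1.73 ± 0.36, adjusted p = 0.0370). Both were higher in 5 of 5 labels. With genotype and replicate number as a replicate block 9 list genes passed, with DESeq2 9 and without a filter on low counts 13 of 52.

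These calls were sensitive to single libraries. Ptgr1 lost its call in 8 of 10 fits without 1 library (adjusted p = 0.0539 to 0.145) and kept it without CD34+ KO replicate 2 or WT replicate 2. Areg lost its call in 8 of 10 (adjusted p = 0.0527 to 0.162) and kept it without CD34+ WT replicate 2 or 3. The log2 differences in those fits were 1.56 to 2.09 for Ptgr1 and 1.41 to 1.87 for Areg. Without all 3 libraries of KO replicate 2 the adjusted p was 0.0501 and 0.202.

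In the third comparison, CD34+ a6-high against a6-low, 1 of the 40 list genes tested rose and 3 fell, beside 722 of 14652 genes in either direction (4.93%). Akr1b3, which encodes an aldo-keto reductase with prostaglandin F synthase activity, rose 1.61-fold, at 159 ± 13.9 against 101 ± 12.8 CPM (log2 0.68 ± 0.13, adjusted p = 0.0163). Alox12e, an epidermal lipoxygenase gene, fell from 158 ± 220 to 2.46 ± 1.22 CPM (log2 -5.79 ± 0.89, adjusted p = 0.00964). Its a6-low values were 545, 42.8, 51.3, 122 and 28.5 CPM, and its CD34+ values 0.984 to 4.11 CPM. Pla2g2f, a secreted phospholipase A2 gene of the epidermis, fell from 16.9 ± 15.3 to 1.84 ± 2.06 CPM (log2 -3.45 ± 0.81, adjusted p = 0.0336). Pde4b, a cyclic AMP phosphodiesterase gene, fell from 206 ± 157 to 35.4 ± 22.4 CPM (log2 -2.53 ± 0.60, adjusted p = 0.0347).

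All 4 genes moved in 1 direction in 5 of 5 labels. Akr1b3 missed the threshold without CD34+ KO replicate 1 or 2 (adjusted p = 0.0612 and 0.0610), and Alox12e without CD34+ KO replicate 1 (0.0678). Pla2g2f missed it without CD34+ KO replicate 1, KO replicate 2 or WT replicate 3, or without a6-low KO replicate 1 or WT replicate 2 (0.0615 to 0.146, log2 -2.33 to -3.65). Pde4b missed it in 7 of 10 such fits (0.0508 to 0.162, log2 -1.74 to -3.07), all but those without CD34+ WT replicate 2, a6-low KO replicate 1 or a6-low WT replicate 3. It also missed it without both a6-low libraries with high Itga6 (0.136, log2 -1.54). Without all 3 libraries of KO replicate 2 only Alox12e of the 4 passed, and in a fit of the compared groups alone Pla2g2f (0.0564) and Pde4b (0.0504) did not. With genotype and replicate number as a replicate block 11 list genes passed, with DESeq2 8 and without a filter 15 of 52. The 2 highest Pde4b values, 469 and 231 CPM, were in those 2 libraries, as for Ptger4. Among the 9 genes that respond to cyclic AMP, 8 had negative differences and 1 a positive one here, and 1 passed. Over all genes 47.9% were positive. The median of the 9 was -0.59, beside -0.02 over all genes. In the a6 comparison, which holds no CD34+ cells, 1 of the 9 was likewise positive and the median was -0.77. In the first comparison 3 of the 9 were positive and the median was -0.05. For KO minus WT, 7, 9 and 7 were positive in CD34+, CD34- a6-high and a6-low libraries, and 8 in the sums. Over all genes 51% to 53.6% were positive. The medians were 0.48, 0.43, 0.74 and 0.46 in that order, beside 0.01, 0.05, 0.04 and 0.03 over all genes. None of the 9 passed there in the main fits, and the direction of the list was not tested.

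None of the 40 list genes passed in the a6 comparison, where 10 had an unadjusted p under 0.05, as 11.1% of all genes had. Without both a6-low libraries with high Itga6, Alox12e, Pla2g4e and Ptgr1 passed for a6 (log2 -3.98, -2.08 and -1.32, adjusted p = 0.0145, 0.0365 and 0.0403), and without a filter 8 of 52 list genes did. Between genotypes none passed either, but without a filter 2, 3 and 3 did in CD34+, CD34- a6-high and a6-low libraries. An unadjusted p under 0.05 was reached by 6, 3 and 5 of the 40 list genes in the 3 populations. Over all genes the shares were 7.59%, 9.59% and 4.69%. In the sums 10 of 41 list genes reached it, beside 10.6% of 15597 genes. With DESeq2, Alox12e and Pla2g4a passed for a6, and Hpgds, the gene of a prostaglandin D2 synthase of immune cells, was lower in CD34+ KO than WT libraries (log2 -2.62, adjusted p = 0.0306). In the a6 comparison Alox12e had a log2 difference of -3.46 ± 0.77 (adjusted p = 0.189) and Pla2g4a, the cytosolic phospholipase A2 gene that releases arachidonic acid, one of 0.75 ± 0.19 (adjusted p = 0.216).

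**Figure D5:**
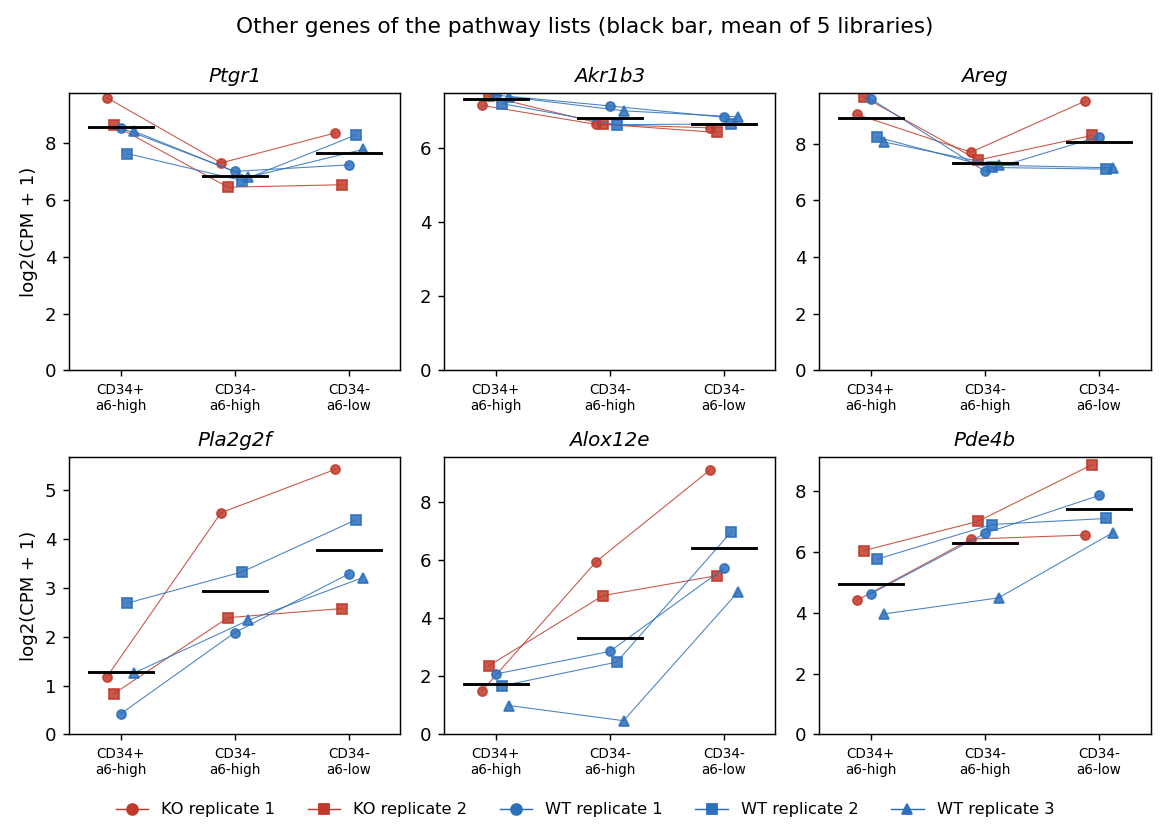
log2(CPM + 1) of the 6 list genes that passed the test between populations, drawn as in the plot of the 10 members. Ptgr1, Akr1b3 and Areg are highest on average in CD34+ a6-high libraries, and Pla2g2f, Alox12e and Pde4b are highest on average in a6-low libraries.

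The genes whose log2(CPM + 1) followed Hpgd most closely over the 15 libraries were Scpep1 (Pearson r = 0.961), Prlr and Postn (both 0.929), P4ha3 (0.927) and Zswim1 (0.924). Those closest to Ptgs2 were Vsig10 (0.940), Pip4k2a (0.936), BC030867 (0.935), Epb41l2 (0.933) and Ctps (0.919). Among the members, Hpgd and Ptger4 had the highest r, 0.766, followed by Ptges and Ptger4 with 0.677, and Ptges2 and Ptger2 had the lowest, -0.705. The libraries share populations and replicate labels, so these values describe likeness only. Hpgd and Ptgs2 had an r of -0.358.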

How the data were processed

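Per the labels' protocols, libraries of the sorted cells were made with the SMART-Seq v4 kit, which does not mark strand. The authors deposited raw read counts, whole numbers for each Ensembl gene. The submitters' processing notes list STAR 2.3.0, Picard 1.100, HTSeq 0.6.0 and mm9 without saying what each was used for, and no annotation release is given in the sources used here. Reads with several alignments (29.9% to 38% of records) were counted for no gene, so genes with close copies are uncertain, as are genes with an antisense partner. The 5 entries per file that name no gene were dropped. A symbol was found by identifier for 32860 of 37583 genes.

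The main test was edgeR 4.0.16 in R 4.3.3 (quasi-likelihood F test after TMM and filterByExpr by group). It used 1 fit of 15 libraries with a coefficient per genotype and population, and for all populations together 1 fit of 5 sums per genotype and replicate number. The fits tested 14652 and 15597 genes, with Benjamini-Hochberg adjustment over all of them at 0.05. Standard errors come from the F statistic, CPM from TMM-scaled library sizes, and RPKM from exon lengths of GENCODE M21, which belongs to another build and gave lengths only. Promoter windows are RefSeq's. The labels do not name the animals, so the p-values reflect the spread among these libraries, some of which may be technical.

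The 10 members and the lists were chosen with earlier results of these data known. The naming rule takes every member in every library, the list genes past the threshold and, where fewer than 4 of a list pass, those with the smallest p, and the 5 genes most like Hpgd and Ptgs2. Krt10, Ddx3y, Hpgds and the single cell type markers named above were singled out with their values known. No 2 replicates agreed within sampling noise (35.3 to 274 chi-square per degree of freedom). Same-labelled libraries were checked for pairing by the correlation of their deviations from group means. It was 0.104 to 0.53 for CD34+ with CD34- a6-high and 0.273 to 0.589 for CD34+ with a6-low libraries. Both were above 0.1 in 5 of 5 labels, so these were taken as pairs, on the evidence of the data alone. The main fit held no term for pairing, so its p-values for these comparisons are unpaired. Among the tests, pairing entered only the replicate block, an alternative listed below. With 2 KO libraries per group, both KO labels give 1 value. CD34- a6-high with a6-low (-0.012 to 0.466, 3 of 5 above 0.1) and KO with WT (-0.501 to 0.105) were not taken as pairs. The alternatives tried were DESeq2 1.42.0, its size factors within edgeR, no filter, at least 10 CPM in 2 libraries, only the compared groups, a replicate block (genotype and replicate number between populations, replicate number between genotypes) and each library left out. Leaving out both a6-low libraries with high Itga6, or all 3 libraries of KO replicate 2, was added with the data in view.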

Additional observations from a re-analysis of the deposited data

Results flagged for a closer look

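In CD34- a6-high cells Ptges3 reached 166.8 CPM in KO replicate 1, while the other 4 libraries held 101 to 104 CPM, so that 1 library stood apart from the rest. This was the only 1 of 30 sets of 5 libraries (10 genes in 3 populations) to be singled out, and chance singles out about 1 in 20. KO replicate 1 also had the highest Ptges3 value in CD34+ libraries, at 205 CPM. The same held in a6-low libraries, at 147 CPM, with WT replicate 1 close to it at 145 CPM.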

How the results depend on the processing

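Of 1341 recomputed log2 differences of the 10 members in 9 comparisons, 1289 kept their direction or shifted by under 1 SE without a change of call, 12 fell below the threshold, 8 rose past it and 32 uncalled ones changed sign by more than 1 SE, and no called difference changed sign. Among the members past the threshold, the count for CD34 was 1 and became 0 without all 3 libraries of KO replicate 2, and ranged from 0 to 1 with single libraries left out. For a6 it was 0 and became 1 with DESeq2 and 1 without a filter. For CD34+ against a6-low cells it was 2 and became 4 without a filter, 3 with DESeq2 and 1 without all 3 libraries of KO replicate 2, with 0 to 2 over single libraries left out. Between genotypes and for the interactions it stayed at 0 in every alternative run. The cause of these changes was not tested, beyond the smaller number of libraries. With genotype and replicate number as a replicate block the count was 1 for CD34, 0 for a6 and 3 for CD34+ against a6-low cells, and blocks changed no other call on a member.

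Counts over all genes moved more. For CD34 they were 171 in the reported fit, 853 with DESeq2, 1242 without a filter, 311 with the compared groups alone, 793 with the replicate block, 32 without all of KO replicate 2 and 7 to 258 with single libraries left out. For a6 they were 1, against 243, 602, 0, 60, 0 and 1 to 50 in the same order, with 3 at 10 CPM and 342 without both a6-low libraries with high Itga6. For CD34+ against a6-low cells they were 722, against 1596, 1900, 422, 1733, 116 and 41 to 691. Between genotypes 1 gene passed in each population and in the sums, against 27, 38, 6 and 143 with DESeq2 and 195, 256, 156 and 6 without a filter, and replicate blocks gave 2, 2, 2 and 0. The interactions called 0 genes, and 20 and 13 without a filter. Low counts limit Ptger3, with at most 14 reads per library, and Hpgd in CD34+ cells, with at most 25. They also limit Ptger2 in WT libraries, with 8 to 66 reads.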
